A study of Gallus gallus with 6 samples.

Results

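Matricellular glycoproteins are secreted proteins that lie in the extracellular matrix and tune how cells attach to it, migrate and receive growth factors, often without forming its load-bearing fibres. The genes described here are TNC (tenascin-C), POSTN (periostin), TGFBI, SPON2, the thrombospondins THBS1, THBS2, THBS4 and COMP, SPARC, and FN1 (fibronectin), which also assembles into fibrils. They were taken as all probe sets whose platform gene symbol is exactly one of these 10 names, which gave 30 of the 38535 probe sets on the array. FN1 had 8 of them, TNC and COMP 4 each, THBS1 and SPARC 3 each, POSTN, THBS2 and SPON2 2 each, and THBS4 and TGFBI 1 each. Probe sets are numbered within each gene from the brightest, over the 6 arrays, and the plots pair these numbers with the array names.

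The cells were dermal myofibroblasts grown out of skin explants from brown Leghorn chicken embryos on day 10, in medium with 4% fetal bovine and 2% chicken serum. Inhibitor cultures were kept for 48 h in 500 nM of the compound named TGFBR1 Kinase Inhibitor II, dissolved in DMSO. DMSO cultures were given the solvent at 0.1%, for a time that the labels do not state separately. Each group had 3 biological replicates on 1 Affymetrix chicken array each, 6 arrays in all. Whether the cultures derive from different embryos is not in the labels, and the p-values reflect the spread among these 6 cultures, which may be technical.

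TGF-beta binds a pair of receptor kinases, and the type I receptor TGFBR1 passes the signal on by phosphorylating SMAD2 and SMAD3, which enter the nucleus and regulate transcription. The compound blocks the kinase of TGFBR1. Many matrix genes of fibroblasts are known targets of this pathway, and TNC, POSTN and THBS1 are textbook markers of healing wounds and activated fibroblasts in mammals. Serum carries TGF-beta of its own, and cultured fibroblasts secrete latent TGF-beta, which THBS1 protein can activate. Per the series title, the comparison asks for the genes under TGF-beta control here.

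All values are the authors' log2 intensities, in which 1 unit is a 2-fold difference. Levels of different probe sets cannot be compared with each other, because each binds its target with its own strength. Between 16356 and 16594 probe sets per array reached a log2 value of 4, and each array correlated more closely with its own group (mean r 0.978 to 0.984) than with the other (0.947 to 0.952). All 8 fibroblast markers, among them COL1A1, COL3A1 and VIM, reached 4 in at least 3 arrays, as did the 4 of 5 smooth muscle and myofibroblast markers that the array names. All 5 melanocyte markers lay below 4 on every array. Of 5 endothelial, 5 skeletal muscle, 4 named keratinocyte, 7 cartilage and tendon and 4 leukocyte markers, 1, 1, 1, 3 and 3 reached 4 in at least 3 arrays.

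Of these genes 8 fell under the inhibitor, while no probe set for fibronectin fell. SPON2 fell 46.5-fold and TGFBI 19.1-fold, POSTN, COMP, TNC and THBS2 fell 5.59-fold to 7.01-fold, and THBS1 and SPARC fell 2.20-fold and 1.49-fold, each by its brightest probe set. These 8 genes made up all but FN1 of the 9 that had a probe set above the filter, which asked that 3 or more of the 6 arrays read 4 or higher. Over all 8124 genes tested, 7.5% fell. By probe set, 17 of the 26 tested fell, against 6.51% of all 16567 tested, and 2 rose, against 7.27%. Together, 19 of 26 were called, against 13.8% of all tested. The genes were chosen with earlier results of these data known, so these shares describe the genes and are not a test of them. The call rule was an adjusted p under 0.05 in limma, with Benjamini-Hochberg adjustment over all 16567 probe sets.

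The 26 tested probe sets had a median difference of -1.18 on the log2 scale, against 0.01 for everything tested. In 19 of the 26 the inhibitor and DMSO arrays did not overlap, against 35.8% of all tested. Of the 4 untested probe sets, 2 were for TNC, 1 for COMP and 1 for THBS4. One tested TNC probe set passed the filter through its DMSO arrays alone, so a difference there was built into its selection. That probe set is counted among the 17 falls and among the 19 without overlap. A filter at 6 in 3 arrays, which left it out, called 16 falls and 2 rises for these genes. At that filter COMP probe set 3, counted among the 16, passed through its DMSO arrays alone. A difference was thus built into its selection there. Over all probe sets tested at 6, 1038 fell and 1134 rose, against 1078 and 1205 at the filter of 4. The number that passed the filter at 6 is not given here, so no share stands beside these counts. Without any filter, limma called 12 falls and 2 rises among all 30 probe sets, against 1.61% falls and 1.73% rises over the 38439 then tested. Leaving out DMSO replicate 1 left 12 of the 19 calls, and leaving out DMSO replicate 1 or inhibitor replicate 2 left 5 of the 8 genes called. Over all tested probe sets the 2283 calls became 1107 without DMSO replicate 1 and 1658 without inhibitor replicate 2.

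Arrays of whole cultures cannot tell fewer cells of a kind from less RNA per cell. The summed level of the 8 fibroblast markers was 17.35 to 17.58 in inhibitor arrays and 17.59 to 17.77 in DMSO arrays, on a log2 scale. That sum is mostly the signal of VIM, COL1A1 and COL3A1. Because each probe set binds with its own strength, such sums compare arrays and not the amounts of different genes. Of the 8, PDGFRB rose, averaging 9.68 in inhibitor arrays and 8.48 in DMSO arrays (limma adjusted p 0.00919). LUM averaged 12.61 in inhibitor arrays and 14.56 in DMSO arrays (limma adjusted p 0.0651), and the others did not pass either. The 4 smooth muscle and myofibroblast markers summed to 13.32 to 13.58 in inhibitor arrays and 13.59 to 13.78 in DMSO arrays. That sum is mostly TAGLN, which averaged 13.45 in inhibitor arrays and 13.63 in DMSO arrays. Among the 4 markers MYOCD, a coactivator of smooth muscle genes, fell, averaging 5.76 in inhibitor arrays and 8.66 in DMSO arrays (limma adjusted p 0.00479). MYH11, smooth muscle myosin, was called higher, averaging 5.99 in inhibitor arrays and 3.49 in DMSO arrays (limma adjusted p 0.00817). It reached 4 on 3 of the 6 arrays, the fewest the filter allows, so a difference may be built into its selection. ACTA2 and TAGLN did not pass. The 4 leukocyte markers summed to 8.54 to 9.05 in inhibitor arrays and 8.01 to 8.34 in DMSO arrays, with PTPRC, CSF1R and CD74 at 4 or above on all 6 arrays and the transcription factor SPI1 below 4 on all. PTPRC, the leukocyte surface phosphatase CD45, makes up most of that sum and averaged 8.36 in inhibitor arrays and 7.62 in DMSO arrays (limma adjusted p 0.0780). The 5 endothelial markers summed to 5.70 to 6.28 and 6.19 to 6.79 in inhibitor and DMSO arrays, with KDR and TEK below 4 throughout. PECAM1, an endothelial adhesion protein, was at 4 or above on all 6 arrays and fell, averaging 4.70 in inhibitor arrays and 5.53 in DMSO arrays (limma adjusted p 0.0409). The part of these differences in the results was not tested.

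**Figure D1:**
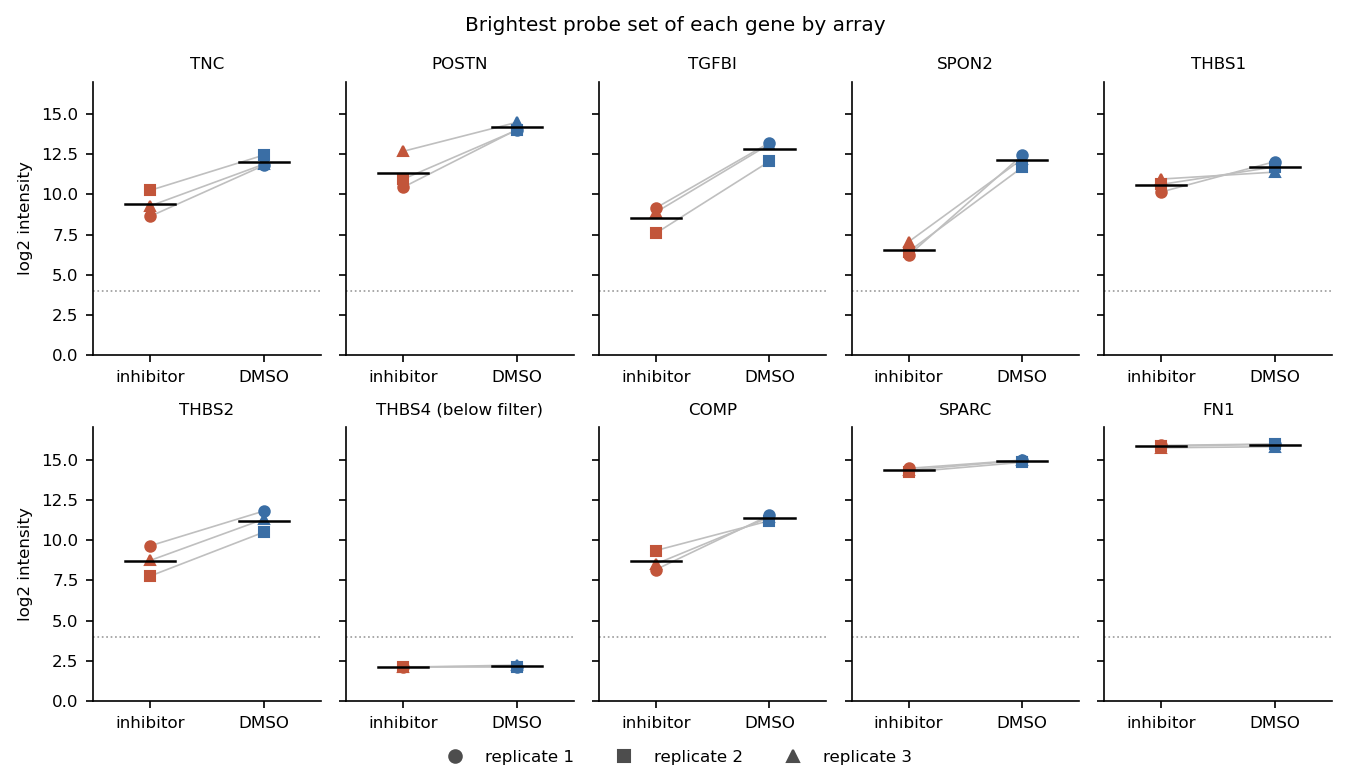
Log2 intensity (vertical axis) of the brightest probe set of each gene in the 3 inhibitor arrays (left in each panel) and the 3 DMSO arrays (right). Symbols mark replicate numbers, grey lines join equal numbers, black bars are group means and the dotted line is the filter at 4. The inhibitor points lie below all DMSO points for 8 genes, THBS4 lies near 2 in all 6 arrays, and the FN1 groups overlap.

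SPON2 encodes spondin-2, a secreted protein also called mindin, known in mice as an integrin ligand of leukocytes. SPON2 probe set 1 read 6.20, 6.44 and 7.04 in inhibitor replicates 1 to 3, against 12.43, 11.68 and 12.20 in DMSO replicates 1 to 3. The groups were separated by 4.63 log2 units, and by brightest probe set no other tested gene fell as far. The difference was -5.54 ± 0.28 (SE of the limma fit, 3 arrays per group; adjusted p 0.000372, 95% interval -6.21 to -4.87). SPON2 probe set 2 read 6.78, 6.21 and 6.83 in inhibitor arrays and 10.30, 9.52 and 10.12 in DMSO arrays, a difference of -3.37 ± 0.26 (limma adjusted p 0.00114). The probe sets share the direction and the separation of the groups and differ in the size of the fall, 46.5-fold in the one and 10.4-fold in the other.

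TGFBI is a secreted protein that binds collagens and integrins and takes its name from its induction by TGF-beta. Its single probe set read 9.14, 7.57 and 8.88 in inhibitor arrays, against 13.20, 12.04 and 13.11 in DMSO arrays. Replicate 2 was the lowest of both groups, and the difference within each replicate number was close to constant at -4.05, -4.47 and -4.23. The fall of -4.25 ± 0.49 (limma adjusted p 0.00377) ranked 6 among the 8124 tested genes ordered from the largest fall, where SPON2 ranked 1. Fitting the replicate number as a block lowered the limma adjusted p to 0.000207.

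POSTN encodes periostin, which binds collagen and fibronectin, helps collagen crosslinking and signals through alpha-v integrins. POSTN probe set 1 read 10.43, 10.93 and 12.66 in inhibitor arrays and 14.01, 13.98 and 14.46 in DMSO arrays. POSTN probe set 2 read 8.02, 8.09 and 9.73 in inhibitor arrays and 12.01, 11.79 and 12.79 in DMSO arrays. Replicate 3 was the highest array of both groups in both probe sets, and the inhibitor arrays spread over 2.24 and 1.71 log2 units, against 0.49 and 1.00 for the DMSO arrays. The differences were -2.81 ± 0.55 (limma adjusted p 0.0217) and -3.58 ± 0.51 (0.00751), or 7.01-fold and 12.0-fold lower. Leaving out any array other than inhibitor 3 ended the call of probe set 1 (limma adjusted p 0.0556 to 0.0780), and without inhibitor 3 its difference was -3.47 (0.00327). Probe set 2 kept its call without each single array (0.00429 to 0.0327).

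TNC encodes tenascin-C, a large multi-armed glycoprotein of embryonic and wounded connective tissue that modulates cell adhesion to fibronectin. TNC probe set 1 read 8.63, 10.24 and 9.27 in inhibitor arrays, against 11.79, 12.43 and 11.87 in DMSO arrays. The highest inhibitor array stood 1.55 log2 units below the lowest DMSO array. The difference was -2.65 ± 0.41 (limma adjusted p 0.00999), a 6.27-fold fall that kept its call without each single array (0.00597 to 0.0385). TNC probe set 2 read 2.78, 3.25 and 3.26 in inhibitor arrays, at the floor of the scale, and 5.92, 4.82 and 5.09 in DMSO arrays, so its fitted difference of -2.18 depends on that floor. TNC probe sets 3 and 4 stayed at 2.32 to 2.59 in inhibitor arrays and 2.34 to 3.62 in DMSO arrays and were not tested.

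Of the thrombospondins, THBS1 and THBS2 form the subgroup that assembles as trimers and inhibits blood vessel growth, while THBS4 and COMP belong to the pentameric subgroup of tendon and cartilage. COMP fell in 3 of its 4 probe sets, THBS2 fell in both of its probe sets, THBS1 fell in 2 of 3, and the only THBS4 probe set stayed at the floor. Whether these falls differ in size between the genes was not tested.

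COMP, cartilage oligomeric matrix protein, binds fibrillar collagens and matrilins and assists collagen fibril assembly. COMP probe set 1 read 8.17, 9.36 and 8.52 in inhibitor arrays and 11.54, 11.21 and 11.42 in DMSO arrays. COMP probe set 2 read 7.53, 8.54 and 7.88 in inhibitor arrays and 10.84, 10.60 and 10.78 in DMSO arrays. In both, the DMSO arrays spanned 0.33 and 0.24 log2 units and inhibitor 2 was the least reduced. The differences were -2.71 ± 0.30 (limma adjusted p 0.00339) and -2.76 ± 0.25 (0.00193), and probe set 3 gave -2.36 ± 0.35 (0.00908). COMP probe set 4 read 1.57 to 1.59 on all 6 arrays, which is the floor. The 3 tested probe sets kept their calls without each single array. Of 7 cartilage and tendon markers, SOX9, ACAN, MATN1 and TNMD lay below 4 on every array. COL2A1 reached 4 on 5 of the 6 arrays, averaging 4.05 in inhibitor arrays and 4.08 in DMSO arrays (limma adjusted p 0.901). The tendon transcription factor MKX averaged 12.32 in inhibitor arrays and 12.38 in DMSO arrays. SCX, also a tendon transcription factor, averaged 4.61 in inhibitor arrays and 7.43 in DMSO arrays (limma adjusted p 0.0943). The markers summed to 12.20 to 12.52 in inhibitor arrays and 12.26 to 12.64 in DMSO arrays, a sum that is nearly all MKX, and their part in the fall of COMP was not tested.

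THBS2 protein regulates collagen fibril assembly and clears matrix proteinases in mouse skin. THBS2 probe set 1 read 9.65, 7.77 and 8.74 in inhibitor arrays and 11.81, 10.50 and 11.30 in DMSO arrays. THBS2 probe set 2 read 7.13, 4.96 and 5.56 in inhibitor arrays and 9.36, 7.79 and 8.51 in DMSO arrays. In both probe sets and both groups replicate 1 was highest and replicate 2 lowest, so spread between replicate numbers entered the error of the unblocked fit. The differences were -2.48 ± 0.53 (limma adjusted p 0.0281) and -2.67 ± 0.63 (0.0387), and with the replicate block the adjusted p-values were 0.000531 and 0.000851. Without the block, leaving out any array other than inhibitor 1 or DMSO 2 ended the call of probe set 1 (0.0515 to 0.0962), and leaving out any other than inhibitor 1 ended that of probe set 2 (0.0527 to 0.120). Without inhibitor 1, probe set 2 stood at -3.29.

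THBS1, which activates latent TGF-beta and binds the receptors CD36 and CD47, had 3 probe sets. THBS1 probe set 1 read 10.14, 10.61 and 10.94 in inhibitor arrays and 12.03, 11.70 and 11.38 in DMSO arrays. THBS1 probe set 3 read 9.34, 9.79 and 9.74 in inhibitor arrays and 11.17, 10.91 and 10.45 in DMSO arrays. Both fell, with differences of -1.14 ± 0.25 (limma adjusted p 0.0296) and -1.22 ± 0.22 (0.0156), without overlap between the groups. THBS1 probe set 2 read 9.93, 10.30 and 11.12 in inhibitor arrays and 11.76, 11.49 and 10.93 in DMSO arrays, where inhibitor 3 lay above DMSO 3. It did not pass at -0.94 ± 0.34 (limma adjusted p 0.127, 95% interval -1.77 to -0.12), and without inhibitor 3 it stood at -1.28 (0.0484).

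In all 3 THBS1 probe sets the gap between inhibitor and DMSO was widest in replicate 1 and narrowest in replicate 3. It was -1.89, -1.09 and -0.43 in probe set 1, and -1.83, -1.19 and 0.19 in probe set 2. The call of probe set 1 ended without any array other than inhibitor 3 or DMSO 3 (limma adjusted p 0.0695 to 0.0948). That of probe set 3 ended without inhibitor 1, DMSO 1 or DMSO 2 (0.0522 to 0.0526). THBS4, a thrombospondin of tendon and muscle, read 2.13, 2.14 and 2.11 in inhibitor arrays and 2.15, 2.13 and 2.24 in DMSO arrays, below 4 on every array.

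SPARC, also called osteonectin, is a collagen-binding glycoprotein that affects collagen processing and is abundant in bone and in fibroblasts. SPARC probe set 1 read 14.46, 14.22 and 14.35 in inhibitor arrays and 14.97, 14.83 and 14.95 in DMSO arrays. The arrays of each group spanned 0.23 (inhibitor) and 0.14 (DMSO) log2 units, so a small shift stood clear of the spread. The difference was -0.57 ± 0.08 (limma adjusted p 0.00623), a 1.49-fold fall that kept its call without each single array. Probe sets 2 and 3 fell by 0.65 and 0.71 on the log2 scale (limma adjusted p 0.0129 and 0.0334), and the groups overlapped in none of the 3. The call of probe set 2 ended without DMSO 1 or DMSO 3 (0.0530 and 0.0519), and that of probe set 3 without any array other than DMSO 3 (0.0508 to 0.0900). The highest value on any array was 16.02, and near the top of the scale intensities can respond less than in proportion. Whether this bears on the size of the SPARC falls was not tested.

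**Figure D2:**
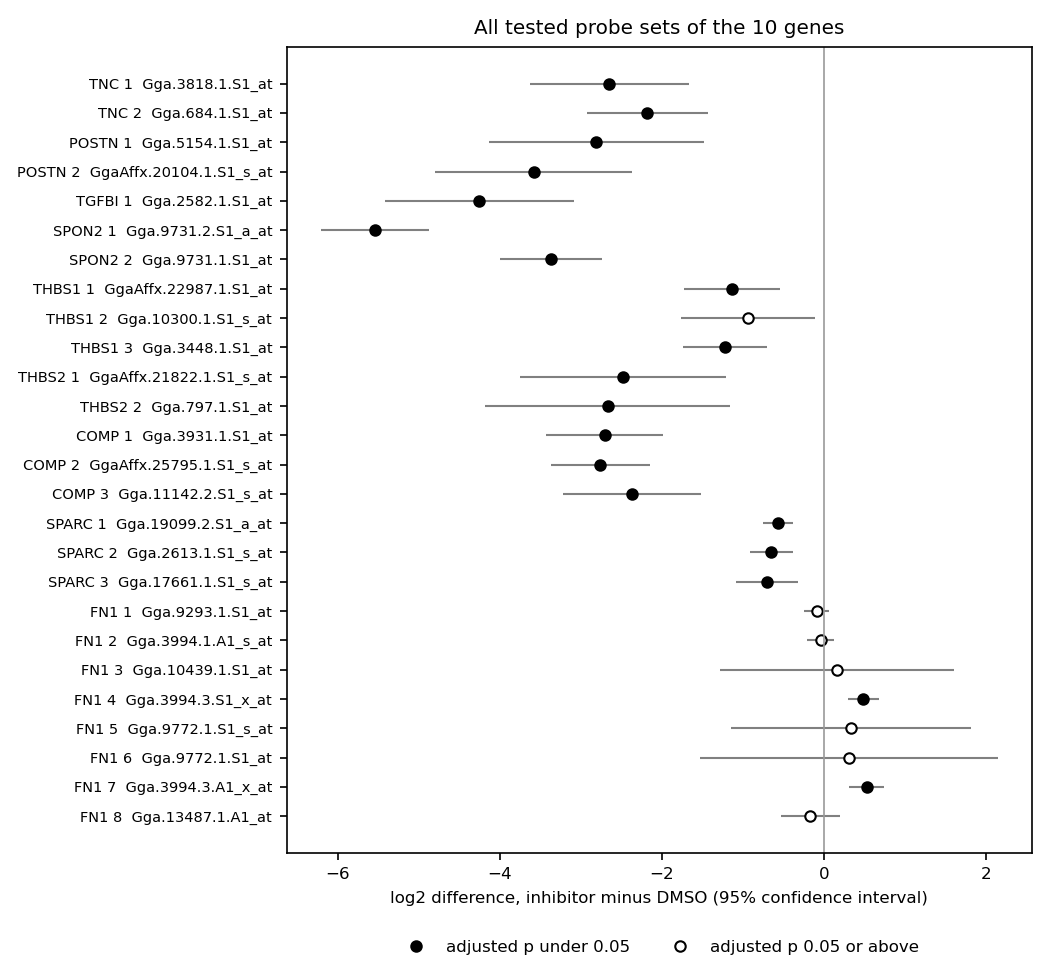
Log2 difference, inhibitor minus DMSO (horizontal axis), with its 95% confidence interval from limma for the 26 tested probe sets, named at the left by gene and probe set. Filled points passed at an adjusted p under 0.05. The 17 filled points left of 0 belong to TNC, POSTN, TGFBI, SPON2, THBS1, THBS2, COMP and SPARC, and the 2 filled points right of 0 are FN1 probe sets.

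FN1 encodes fibronectin, the adhesion protein whose fibrils cells assemble through integrins and on which tenascin-C, periostin and collagens are deposited. Its transcript is known to be spliced into several forms in chicken and mammals. The 8 probe sets behaved in 3 ways. FN1 probe set 1 read 15.88, 15.83 and 15.74 in inhibitor arrays and 15.97, 15.95 and 15.80 in DMSO arrays. FN1 probe set 2 read 15.24, 15.10 and 15.27 in inhibitor arrays and 15.14, 15.30 and 15.30 in DMSO arrays. The groups overlapped in both, and the differences of -0.09 ± 0.07 and -0.04 ± 0.07 did not pass (limma adjusted p 0.400 and 0.737). Their 95% intervals, -0.25 to 0.06 and -0.21 to 0.13, exclude a fall of the size seen for SPARC in these probe sets. Both sit at the top of the scale, and whether that limits their response was not tested.

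FN1 probe sets 4 and 7, designed on one shared sequence record, were higher in all inhibitor arrays. Probe set 4 read 11.24, 11.08 and 11.18 in inhibitor arrays and 10.71, 10.68 and 10.64 in DMSO arrays. Probe set 7 read 9.65, 9.59 and 9.63 in inhibitor arrays and 9.13, 9.09 and 9.08 in DMSO arrays. They rose by 0.49 ± 0.08 (limma adjusted p 0.0132) and 0.53 ± 0.09 (0.0133), with differences within replicate numbers of 0.40 to 0.54 and 0.51 to 0.55. Leaving out inhibitor 1 or DMSO 3 ended both calls (0.0519 to 0.0562 over the 4 fits). The ending x_at of their array names marks probe sets with probes that can also bind other transcripts, so these rises are uncertain as measures of FN1.

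A further 3 FN1 probe sets differed in direction between the replicates, and of these probe sets 5 and 6 were designed on one shared sequence record. FN1 probe set 3 read 10.98, 10.33 and 12.48 in inhibitor arrays and 11.84, 11.05 and 10.42 in DMSO arrays. FN1 probe set 6 read 9.69, 8.97 and 11.63 in inhibitor arrays and 10.71, 9.86 and 8.81 in DMSO arrays, and probe set 5 read 10.04, 9.50 and 11.57 in inhibitor arrays and 10.86, 10.02 and 9.23 in DMSO arrays. In all 3, inhibitor 3 was the highest of the 6 arrays and DMSO 3 the lowest or next to lowest. The difference within replicate 3 was 2.06 for probe set 3, 2.82 for probe set 6 and 2.34 for probe set 5, against -1.02 to -0.52 in replicates 1 and 2. None passed (limma adjusted p 0.775 to 0.900), and their 95% intervals, -1.54 to 2.15 at the widest, hold both a fall and a rise. Without inhibitor 3 the differences were -0.45, -0.46 and -0.27, and without DMSO 3 they were -0.19, -0.19 and -0.07, in the same order.

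FN1 probe set 8 read 7.57, 7.64 and 7.24 in inhibitor arrays and 7.77, 7.58 and 7.60 in DMSO arrays and did not pass (-0.17 ± 0.15, limma adjusted p 0.520). For ACTB, whose control probe sets at the 3′ and 5′ ends report on RNA degradation, the log2 difference 3′ minus 5′ was 1.56, 1.49 and 1.65 in inhibitor arrays and 1.47, 1.43 and 1.37 in DMSO arrays. Inhibitor 3, the highest array of FN1 probe sets 3, 5 and 6, was also the highest in this measure, and DMSO 3 the lowest, and its part in their readings was not tested. The groups did not overlap, with a mean difference of 0.14 (two-sided exact permutation test over the arrays, p = 0.1, the lowest value possible with 3 against 3). The same measure differed by -0.04 for GAPDH (exact p = 0.5) and 0.01 for EEF1A1 (exact p = 1), whose sign turned under quantile normalization. These controls did not order the arrays as ACTB did. GAPDH had inhibitor 3 lowest, at -0.11, and DMSO 3 highest, at 0.06. In EEF1A1 inhibitor 3 and DMSO 3 both read 0.54, above the other arrays.

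**Figure D3:**
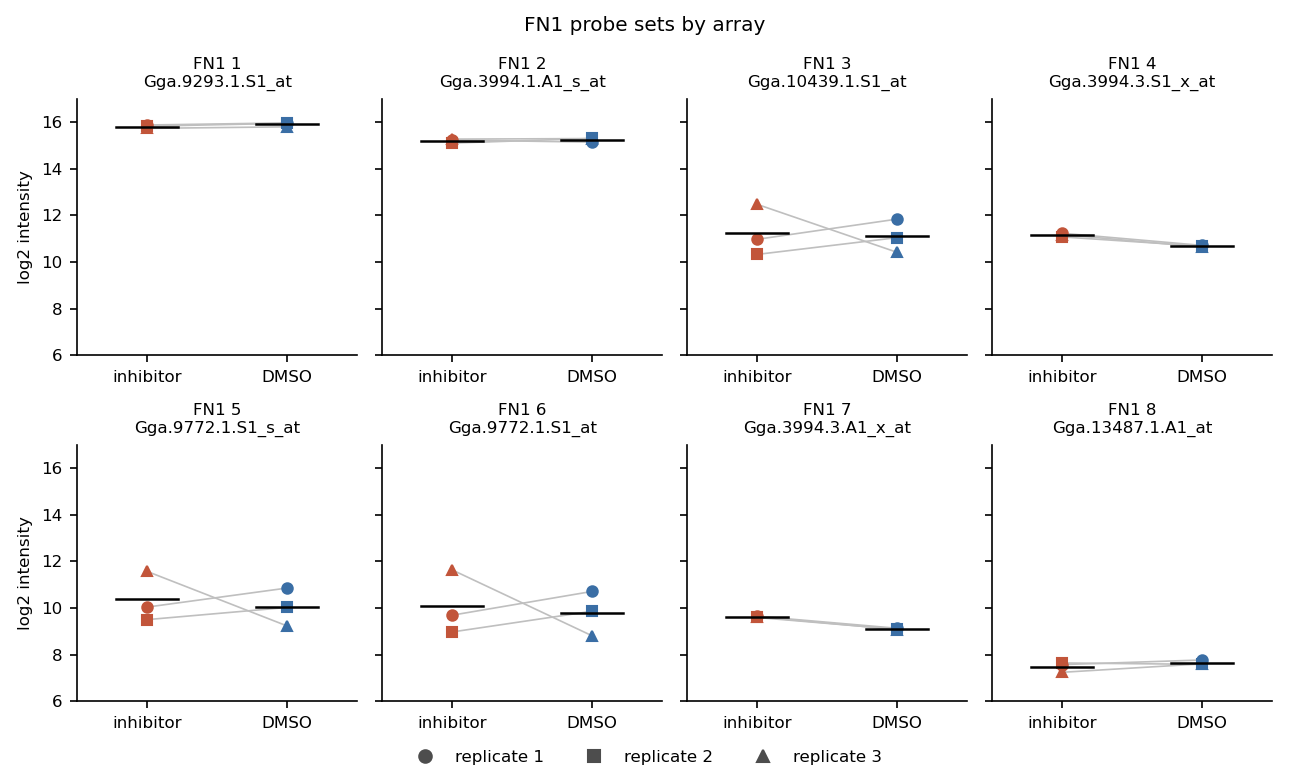
Log2 intensity (vertical axis) of the 8 FN1 probe sets in inhibitor arrays (left in each panel) and DMSO arrays (right). Symbols mark replicate numbers, grey lines join equal numbers and black bars are group means. FN1 probe sets 3, 5 and 6 show the crossing line of replicate 3, and probe sets 4 and 7 lie higher in all inhibitor arrays.

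Within replicate numbers, 18 of the 26 tested probe sets were lower in the inhibitor array in all 3 replicates, and 2, FN1 probe sets 4 and 7, were higher in all 3. The share of all tested probe sets that did so is not given here, so these counts have no background beside them. The 18 include TNC probe set 2, which passed the filter through its DMSO arrays alone. The median difference over the 26 was -1.86 in replicate 1, -1.16 in replicate 2 and -0.92 in replicate 3. The replicates did not rank alike for every gene. The falls of SPON2 and THBS1 were largest in replicate 1 in each of their probe sets, as were those of TNC, POSTN and COMP, whereas those of THBS2, TGFBI and SPARC were smallest there. Blocking on the replicate number in limma gave the same calls, 17 falls and 2 rises, against 13.2% falls and 14.9% rises over all tested. The fits with 1 array left out did not use this block, so spread between replicate numbers entered their error.

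**Figure D4:**
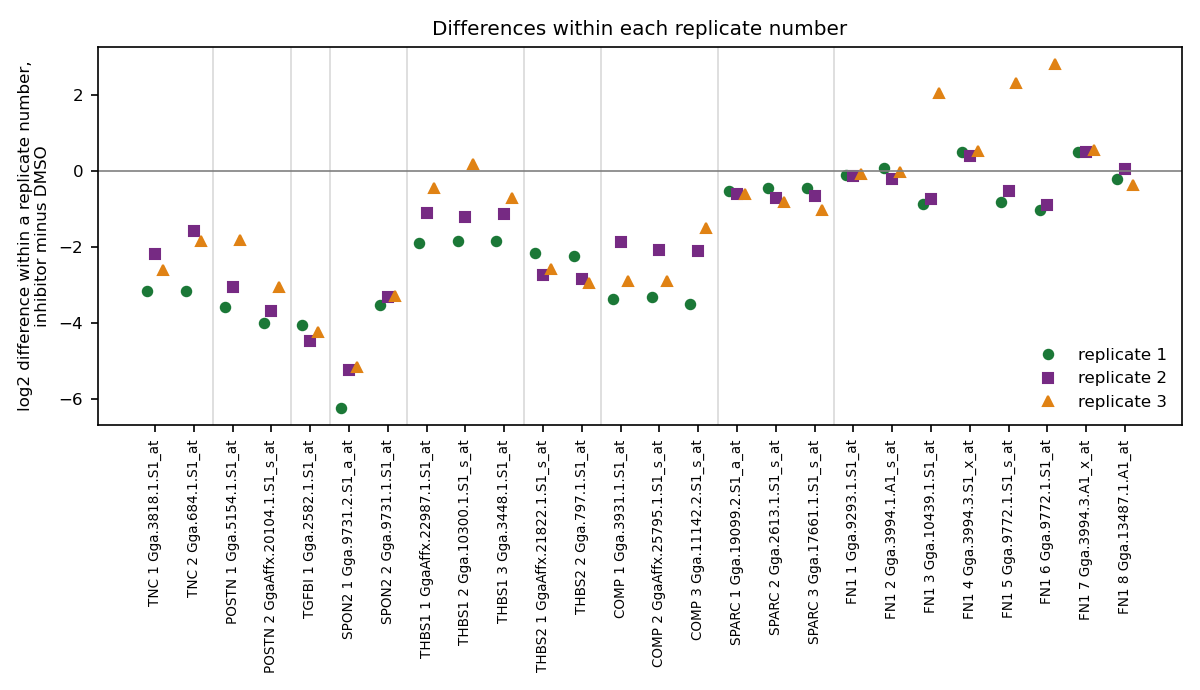
Log2 difference between the inhibitor and DMSO arrays of the same replicate number (vertical axis) for each tested probe set (horizontal axis), with 1 symbol per replicate. TGFBI and SPARC points lie close together, THBS1 points spread from -1.89 to 0.19, and 3 FN1 probe sets have replicate 3 at 2.06 to 2.82.

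Genes listed beside these proteins, as family relatives or other adhesive matrix proteins, included both rises and falls. Of 24 listed tenascin, thrombospondin, SPARC, spondin and CCN relatives and other adhesive matrix proteins, 13 were tested, 3 rose and 2 fell, against 8.17% and 7.5% of all tested genes, with a median difference of 0.21. With the replicate block 5 rose and 3 fell, against 16.5% and 15.2%. VTN, the adhesion protein vitronectin, read 7.87, 7.44 and 8.28 in inhibitor arrays and 2.24, 2.26 and 2.29 in DMSO arrays. It entered the test through the inhibitor arrays alone, so a difference was built into its selection. Both counts of rises among the relatives, 3 and 5, include it. CCN3, a secreted CCN protein, rose by 2.86 ± 0.73 (limma adjusted p 0.0494), while CCN5 fell (-2.18 ± 0.23, 0.00286), as did CCN4 (-1.88 ± 0.17, 0.00191). The rise of CCN3 was 2.13 without DMSO 1, and its call ended without any array other than DMSO 2 (0.0637 to 0.131). SMOC2, a relative of SPARC and outside the naming rule, rose by 1.31 ± 0.21 (limma adjusted p 0.0114). TNN, TNR, SPARCL1, SPOCK1, SPOCK3 and ABI3BP were below the filter.

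Cell surface receptors of the matricellular proteins moved both ways. ITGB3 (-3.07 ± 0.74, limma adjusted p 0.0414) and ITGB5 (-1.72 ± 0.13, 0.000998), the beta chains that pair with alpha-v to bind periostin, TGFBI and vitronectin, fell. ITGB5 read 11.27, 11.33 and 11.69 in inhibitor arrays and 13.11, 13.07 and 13.24 in DMSO arrays. ITGA9, part of a tenascin-C receptor, rose by 2.07 ± 0.26 (limma adjusted p 0.00532), reading 8.76, 8.84 and 8.34 in inhibitor arrays and 6.20, 6.45 and 7.08 in DMSO arrays. CD47, a THBS1 receptor, rose by 0.53 ± 0.12 (limma adjusted p 0.0383). These were the only calls among 11 tested of 20 listed receptors, 2 up and 2 down, against 8.17% up and 7.5% down over all tested genes, with a median of -0.06. Under the block there were 4 up and 3 down, against 16.5% and 15.2%. ITGAV, the alpha-v chain, stood at 0.11 ± 0.10 (limma adjusted p 0.516). Without the block, leaving out any array other than DMSO 2 ended the call of ITGB3 (0.0624 to 0.125), which stood at -3.86 without DMSO 2. That of CD47 ended without any array other than inhibitor 3 (0.0578 to 0.117). With the block and all 6 arrays the limma adjusted p-values of ITGB3 and CD47 were 0.00342 and 0.00363.

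Among matrix partners and processing enzymes, 14 of 21 listed were tested, 2 rose and 3 fell, against 8.17% and 7.5% of all tested genes, with a median of -0.24. TGM2, the transglutaminase that crosslinks fibronectin, rose by 3.30 ± 0.32 (limma adjusted p 0.00217), with 7.89, 7.89 and 7.60 in inhibitor arrays and 4.69, 3.79 and 5.00 in DMSO arrays. VCAN, the proteoglycan versican, which binds tenascins, rose by 0.98 ± 0.15 (limma adjusted p 0.0103). TLL1, a relative of the procollagen proteinase BMP1, fell (-2.26 ± 0.26, limma adjusted p 0.00396), and so did LTBP1, the latent TGF-beta binding protein that fibronectin holds in the matrix (-1.72 ± 0.15, 0.00151). COL12A1, a collagen that binds tenascins and outside the naming rule, also fell (-0.96 ± 0.09, limma adjusted p 0.00204). The block gave 2 rises and 7 falls, against 16.5% and 15.2% of all tested genes. COL1A1, the main fibrillar collagen chain, did not pass (-0.11 ± 0.07, limma adjusted p 0.345).

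**Figure D5:**
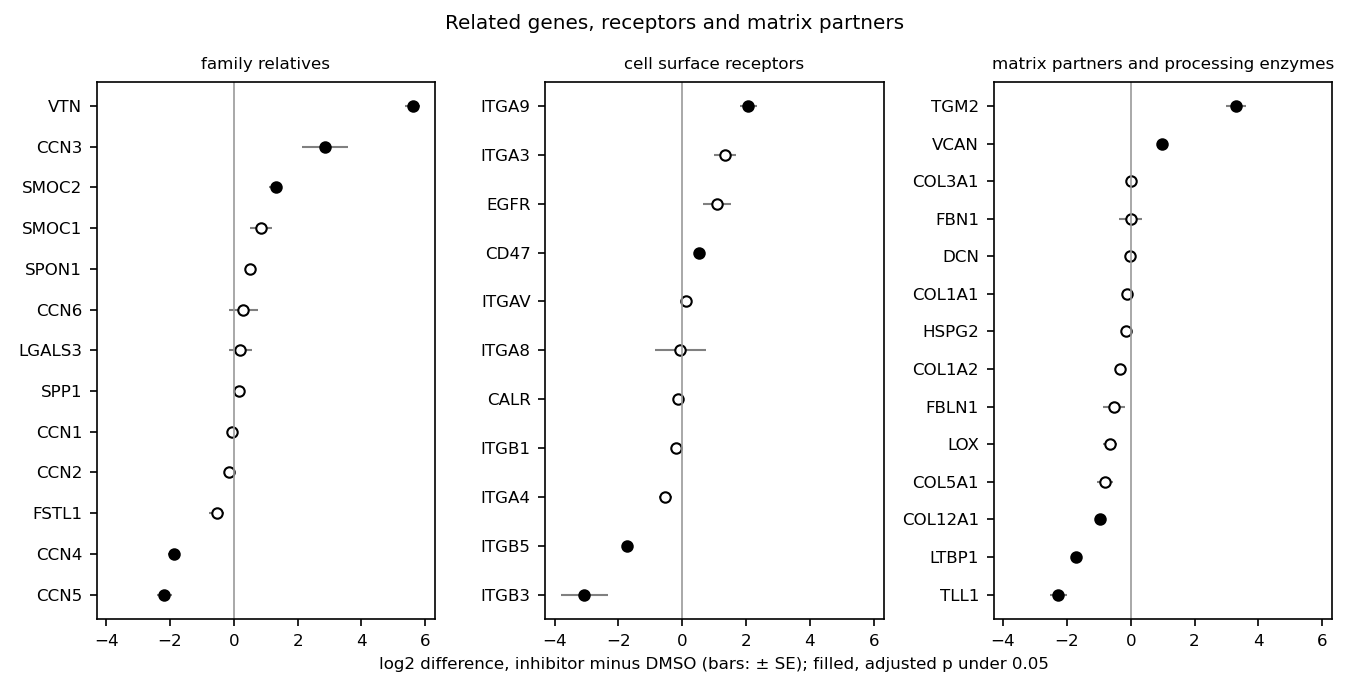
Log2 difference, inhibitor minus DMSO (horizontal axis), of the tested genes of 3 lists, each by its brightest probe set, with SE bars from limma. Filled points passed at an adjusted p under 0.05: 3 rises and 2 falls among relatives, 2 and 2 among receptors, and 2 and 3 among matrix partners and enzymes.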

How the data were processed

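RNA of 6 cultures was measured on Affymetrix chicken arrays. The authors deposited a log2 intensity for each probe set on each array; GCRMA and Partek 6.4 are named per the submitters' processing notes, with settings not given in the sources used here. The log2 scale was read from the values (1.12 to 16.02), in which dim probe sets gather at about 2 to 3. The number of arrays limits the precision.

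Sample titles gave the groups and replicate numbers. Deviations from group means correlated at 0.63, 0.67 and 0.45 between same-numbered arrays and at -0.45 to -0.14 between others. Because deviations cancel within a group, positive values between same-numbered arrays bring negative values between others. The values go with a pairing by replicate number but do not settle it, and the labels do not state it. The 96 control probe sets were left out, and 16567 (43.1%) passed the filter. Names came from the platform annotation, and all 10 member symbols matched the gene table of assembly GRCg7b. A gene stands by its brightest tested probe set. The comparison used limma 3.58.1 (R 4.3.3; lmFit and eBayes with trend, no block, two-sided), with p-values adjusted by Benjamini-Hochberg over the 16567. It was also run on simulated data, drawn without any link between same-numbered arrays. That run therefore cannot show the error rate of the fit where such a link exists. In each list, the up to 4 called genes with the largest difference were named. Members and lists were chosen with earlier results of these data known. Alternatives were a replicate block, other filters, scalings and variance models, each array left out, and genes averaged over probe sets.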

Additional observations from a re-analysis of the deposited data

How the results depend on the processing

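The count of 19 called probe sets was 19 with the replicate block, median centring and quantile normalization, 18 without trend or with a filter at 6, 14 with no filter and 8 without moderated variances, and 12 to 17 without 1 array. The replicate block changed none of the 26 single calls. The 8 genes called were 5 with no filter, 4 without moderation, and 5 to 7 without 1 array. Counts of all genes called under these settings are not given here. Over all tested probe sets the 2283 calls became 4661 with the replicate block, 1285 with no filter, 996 without moderation and 1107 to 1658 without 1 array. The 5 calls among relatives became 8 with the replicate block and 3 without moderation. The 4 among receptors became 7 with the block, 2 with no filter or without moderation, and 2 to 4 without 1 array. The 5 among matrix partners became 9 with the block. Signs reversed only for FN1 probe sets and the EEF1A1 control. FN1 probe set 2 ranged from -0.10 to 0.0068 without 1 array, the higher value without inhibitor 2. Probe set 3 ranged from -0.45 to 0.62, probe set 5 from -0.27 to 0.77 and probe set 6 from -0.46 to 0.87, with -0.19, -0.07 and -0.19 without DMSO 3 and the lowest values without inhibitor 3. EEF1A1 was -0.0232 with quantile normalization and -0.0168 to 0.0312 without 1 array, with -0.0115 without inhibitor 3. With no filter more probe sets share the adjustment, and without 1 array fewer samples enter. For the other settings the cause was not tested.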
